A study of Homo sapiens with 6 samples.

Results

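The genes described are 9 galectins (LGALS1, LGALS2, LGALS3, LGALS4, LGALS7, LGALS8, LGALS9, LGALS12 and LGALS13) and LGALS3BP, which encodes a galectin-3 binding protein. They were chosen by name: each probe set, a group of array probes read as 1 value, counts as theirs if the RefSeq accession in its identifier belongs to that gene. All 10 genes were found, each with 1 probe set, out of 927 named genes and 1259 probe sets on a focused glycosylation array.

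Galectins are small lectins that bind beta-galactosides, above all N-acetyllactosamine on N-glycans and extended O-glycans. They reach the cell surface by a secretion route that bypasses the endoplasmic reticulum, and there they cross-link glycoproteins, while part of each pool stays in the cytoplasm and nucleus. Prototype galectins carry 1 carbohydrate-recognition domain, tandem-repeat galectins carry 2 that differ, and galectin-3 is the only chimera type, with a long tail through which it forms oligomers. LGALS3BP is not a galectin but a heavily glycosylated secreted protein that galectin-3 binds. In the gut, galectin-4 is typical of differentiated epithelium, and galectin-1 and galectin-3 are the members most often studied in colorectal cancer.

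The samples were 6 arrays of HCT116 cells, an established line from a colorectal carcinoma with unstable microsatellites, stably transfected for doxycycline-inducible expression. The titles name wild-type ACVR2, an activin receptor gene, as the inducible gene; the source names give TGFBR2, ACVR2 and AIM2 side by side. Activin A, which that receptor binds, was given to every sample. They differ in doxycycline: 3 arrays are labelled +DOX and 3 are labelled -DOX. Dose, time and clone are not given in the sources used here, and no sample had doxycycline without the transgene, so drug and receptor effects cannot be told apart. The labels do not say that replicates were separate cultures, so the spread behind the p-values may be technical only. The comparison asks whether galectin expression differs between the arrays labelled +DOX and those labelled -DOX.

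The probe set of ACVR2A, the gene meant to be induced, read 8.15, 8.02 and 8.08 log2 units on the arrays labelled +DOX and 8.25, 8.07 and 8.70 on those labelled -DOX (limma, adjusted p = 0.710). The difference was -0.26, and -0.08 without replicate 3 labelled -DOX. ACVR2A was thus not higher on the arrays labelled +DOX, and it is unknown whether its probes cover the transgene. Groups are therefore named by label throughout. Replicate 3 labelled -DOX stood apart: its correlations with the other arrays across probe sets ran from 0.982 to 0.991, against 0.995 to 0.999 among the other 5. It was the lowest or highest of the 6 arrays for 61.6% of all probe sets, and for 7 of the 10 genes described here. Values without it are given beside the differences that it moves most.

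LGALS1, LGALS3 and LGALS3BP were the bright members, at means over the 6 arrays of 13.46, 11.97 and 11.89 log2 units. LGALS9 was intermediate at 8.45, and the remaining 6 were dim, between 6.69 and 7.53. As a guide to what a dim value means, 40 genes mainly of leukocytes (SELP is also made by platelets and endothelium), not expected in a colon carcinoma line, had means from 6.10 to 8.61 with a median of 6.80. All 3 bright members lay above every gene of that list, and LGALS9 lay above all but 2 of them, the natural killer receptor genes KLRC1 (8.61) and KLRC3 (8.59). The other 6 members lay inside its range, with 4 to 22 of the 40 genes brighter. The deposited table holds no detection calls, and brightness depends on the probes as well as on the transcript, so these values do not rank the genes by transcript amount and do not show that a dim gene is silent. The mean of the leukocyte list lay between 6.92 and 6.94 on the arrays labelled +DOX and between 6.91 and 6.95 on those labelled -DOX. Of other cell type markers, 3 endothelial genes had means of 6.25 to 7.08, and 4 fibroblast genes had a median of 6.59 and a highest mean of 8.45, that of the proteoglycan gene BGN. Of 6 epithelial markers only MUC1 was measured, at 8.74, too few to check the epithelial identity.

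**Figure D1:**
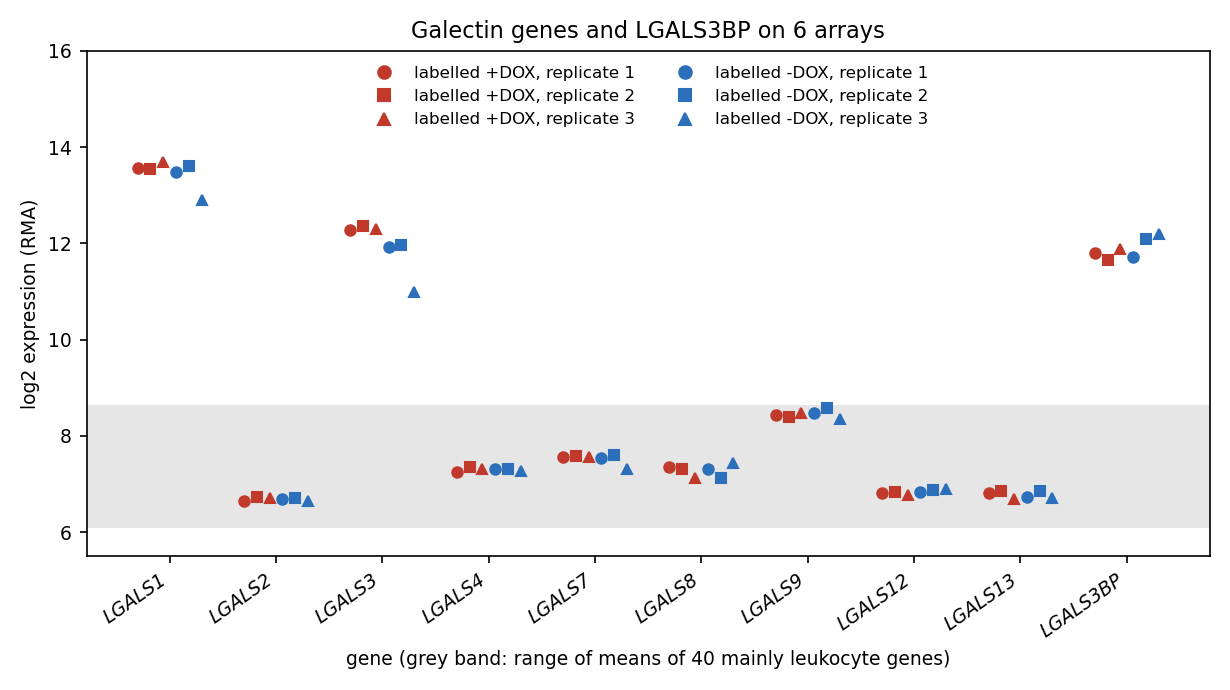
Log2 expression (vertical axis) of the 10 genes on each of the 6 arrays; colour marks the label (red +DOX, blue -DOX), symbol the replicate, and the grey band the range of means of 40 leukocyte genes, 6.10 to 8.61. LGALS1, LGALS3 and LGALS3BP lie above the band, and replicate 3 labelled -DOX (blue triangle) is the lowest array for LGALS1 and LGALS3 and the highest for LGALS3BP.

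LGALS3, the chimera-type galectin, showed the widest difference of the 10 genes. It read 12.28, 12.36 and 12.29 on replicates 1, 2 and 3 labelled +DOX, and 11.92, 11.97 and 10.99 on those labelled -DOX. Every array labelled +DOX was thus above every array labelled -DOX, and replicate 3 labelled -DOX was far below its own group. The difference was 0.68 log2 units (SE 0.27, 95% interval 0.0050 to 1.36, n = 3 each; 1.61-fold), which did not pass over all probe sets (limma, adjusted p = 0.627). The exact two-sided permutation p was 0.1, the smallest that 3 arrays against 3 can give. Without replicate 3 labelled -DOX, which leaves replicates 1 and 2 in that group, the difference was 0.36 (SE 0.04, 95% interval 0.26 to 0.47). The array left out was singled out by its values in these same data. Of all 1259 probe sets, 125 then had an unadjusted p under 0.05 (limma), and only 1 had a smaller one than LGALS3. Again no probe set passed (limma, adjusted p = 0.169 for LGALS3). With all arrays LGALS3 was number 98 in order of unadjusted p. The array that stood apart therefore enlarged the difference and also widened its error.

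LGALS3BP, the secreted ligand of galectin-3, had lower values on average on the arrays labelled +DOX, with overlapping groups. It read 11.81, 11.66 and 11.89 on the arrays labelled +DOX and 11.72, 12.08 and 12.19 on those labelled -DOX. Replicate 1 labelled -DOX lay among the arrays labelled +DOX, and the other two lay above them all. The difference was -0.21 (SE 0.14, 95% interval -0.55 to 0.13; limma, adjusted p = 0.710; exact permutation p = 0.3). It was -0.11 without replicate 3 labelled -DOX, -0.35 without replicate 1 labelled -DOX, and -0.01 with array weights, a fit that counts variable arrays less. On the array that stood apart LGALS3 was at its lowest and LGALS3BP at its highest.

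The upstream regions of LGALS3 and LGALS3BP were unlike in base composition. They are printed for LGALS3 and LGALS3BP because these had the widest differences in each direction, each as the 250 bases before the RefSeq start, 5′ to 3′ on the gene's strand, build GRCh38.p14. The LGALS3 window is chr14:55129002-55129251 (+ strand) and the LGALS3BP window is chr17:78979924-78980173 (- strand). Capitals mark matches, on either strand, to 4 letter patterns: GGGCGG (the GC box, which Sp1 factors bind), CAGAC (the SMAD box), TATAAA (the TATA box) and a pair of GAAA with NN between them (a repeat found in interferon-response elements).
LGALS3: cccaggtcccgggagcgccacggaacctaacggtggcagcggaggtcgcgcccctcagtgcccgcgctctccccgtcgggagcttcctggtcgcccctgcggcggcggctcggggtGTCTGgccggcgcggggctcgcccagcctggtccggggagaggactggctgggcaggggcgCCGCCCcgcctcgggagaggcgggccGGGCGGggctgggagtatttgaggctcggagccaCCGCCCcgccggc
LGALS3BP: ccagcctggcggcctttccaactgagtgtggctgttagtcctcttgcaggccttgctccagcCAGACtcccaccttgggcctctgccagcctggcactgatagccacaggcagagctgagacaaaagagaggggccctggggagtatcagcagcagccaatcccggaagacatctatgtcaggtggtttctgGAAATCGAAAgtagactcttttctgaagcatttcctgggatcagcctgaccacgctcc
The LGALS3 window was 78.8% G or C, above 95.4% of the 35116 windows of that length in the RefSeq table, and held 32 CpG dinucleotides against a median of 11. It held 3 GC boxes, a pattern that 42.6% of all windows have at least once, and 1 SMAD box, which 38.0% have. The LGALS3BP window was 56.8% G or C with 4 CpG dinucleotides, and held 1 SMAD box and 1 interferon-type repeat, which 3.02% of all windows have. Neither held TATAAA, found in 10.7% of windows, and no marked match overlaps another. The patterns were chosen with the sequences in view, and a match is a description of letters, not evidence of binding. Windows were found for 8 of the 10 genes. The GC box also occurred upstream of LGALS7 and LGALS8, and the SMAD box upstream of LGALS8 and LGALS13.

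LGALS1, the prototype galectin and the brightest probe set of the 10, read 13.56, 13.55 and 13.68 on the arrays labelled +DOX and 13.49, 13.60 and 12.89 on those labelled -DOX. Replicates 1 and 2 labelled -DOX lay beside the arrays labelled +DOX, and replicate 3 was below all 5. The difference of 0.27 (SE 0.19, 95% interval -0.20 to 0.75; limma, adjusted p = 0.713; exact permutation p = 0.3) was 0.06 (SE 0.06) without that array. 

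Among the tandem-repeat galectins, LGALS9, whose product is known as a ligand of the immune receptor TIM-3, read 8.44, 8.39 and 8.47 on the arrays labelled +DOX and 8.47, 8.59 and 8.34 on those labelled -DOX. The groups overlapped and the difference was -0.03 (SE 0.07, 95% interval -0.20 to 0.14; limma, adjusted p = 0.884). Without replicate 3 labelled -DOX it was -0.09 (SE 0.05). LGALS9B and LGALS9C are close copies of LGALS9, and whether its probes also detect them is not known. LGALS8, which marks damaged endosomes and binds integrins, read 7.36, 7.31 and 7.13 on the arrays labelled +DOX and 7.30, 7.13 and 7.44 on those labelled -DOX, again overlapping. Its difference of -0.02 (SE 0.10; limma, adjusted p = 0.959) became 0.05 without replicate 3 labelled -DOX.

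LGALS4, the tandem-repeat galectin of differentiated gut epithelium, was dim on all arrays. It read 7.24, 7.35 and 7.31 on the arrays labelled +DOX and 7.32, 7.31 and 7.26 on those labelled -DOX. These fall at the 38.6th to 41.1st percentile of their arrays, and 10 of the 40 leukocyte genes were brighter. The difference was 0.00090 (SE 0.04, 95% interval -0.10 to 0.10; limma, adjusted p = 0.994), and -0.016 without replicate 3 labelled -DOX. LGALS12, a tandem-repeat galectin of fat cells, was the only other member whose groups did not overlap. It read 6.82, 6.83 and 6.76 on the arrays labelled +DOX and 6.84, 6.87 and 6.90 on those labelled -DOX, a gap between the groups that is narrower than the spread within either. The difference was -0.07 (SE 0.04; limma, adjusted p = 0.692; exact permutation p = 0.1) and -0.05 without replicate 3 labelled -DOX, on a probe set that 20 of the 40 leukocyte genes outshone. After centring of the arrays on their medians, or renewed quantile normalization, its groups overlapped.

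The other prototype galectins were dim as well. LGALS7, a galectin of stratified epithelia, read 7.57, 7.59 and 7.57 on the arrays labelled +DOX and 7.55, 7.60 and 7.31 on those labelled -DOX. Its difference of 0.09 (SE 0.08; limma, adjusted p = 0.730) came from replicate 3 labelled -DOX and was -0.00095 without it. LGALS7 and LGALS7B are near-identical copies, so the value cannot be assigned to one of them. LGALS2, found mainly in gut epithelium, lay between 6.65 and 6.73 on all arrays, with a difference of 0.011 (SE 0.04; limma, adjusted p = 0.946) that was -0.0045 without that array. LGALS13, a placental galectin, lay between 6.69 and 6.86, with a difference of 0.03 (SE 0.06; limma, adjusted p = 0.895) that was 0.0026 without it.

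Taking the 10 genes as a list, 6 had higher values on the arrays labelled +DOX, against 45.4% of all probe sets, and 4 had lower values. The split was 7 to 3 after renewed quantile normalization and 4 to 6 without replicate 3 labelled -DOX. Of the 10, 0 passed an adjusted p of 0.05 (limma), where the share over all 1259 probe sets was 0%. At an unadjusted p under 0.05 the count was 1, LGALS3, against 7.78% of all probe sets. It was 0 with any 1 array labelled +DOX left out or with the replicate block, and 2 without replicate 1 labelled -DOX, LGALS3BP being the other. Of all 1259 probe sets, 45, 53 and 73 had such a p without replicates 1, 2 and 3 labelled +DOX. With the block the number was 81, and without replicate 1 labelled -DOX it was 94. The groups did not overlap for 2 of the 10, LGALS3 and LGALS12, against 15.8% of all probe sets, so this share is near the background. Without replicate 3 labelled -DOX these were still LGALS3 and LGALS12, against 25% of all probe sets. The median difference was 0.0058 over the 10 genes and -0.0081 over all probe sets, and -0.0027 and -0.0171 without that array. With all 6 arrays, the differences of the 3 bright members exceeded 0.1 log2 units in size and those of the other 7 did not; over all probe sets 35.8% exceeded that size. This division depended on the setting: without replicate 2 labelled -DOX, for example, LGALS7 was at 0.14 and LGALS8 at -0.104, and LGALS1 was under that size without replicate 3.

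**Figure D2:**
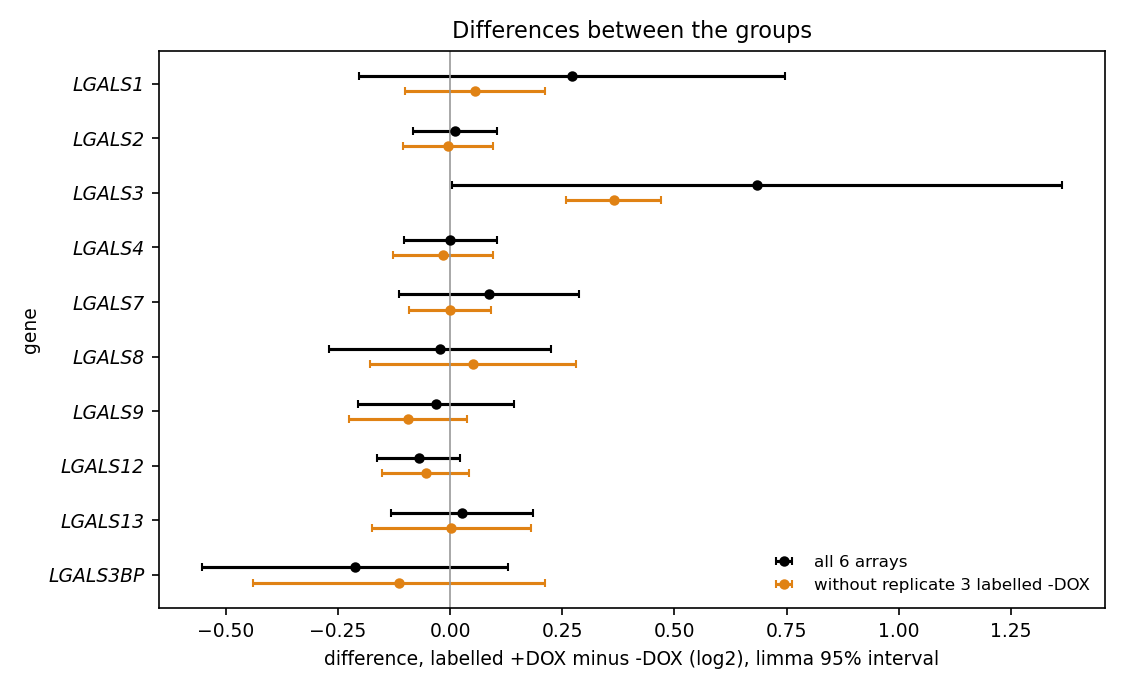
Difference between the groups (horizontal axis, log2, +DOX minus -DOX by label) for each of the 10 genes, with its limma 95% interval, over all 6 arrays (black) and without replicate 3 labelled -DOX (orange). Without that array LGALS3 moves from 0.68 to 0.36 and its interval narrows to 0.26 to 0.47, while the orange intervals of the other 9 genes span 0.

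The genes nearest to LGALS3 in profile shared its low value on the array that stood apart. They were chosen by their values on these same 6 arrays, so this sharing follows from the choice. Over all probe sets, that array was the lowest of the 6 for 448 and the highest for 327. Nearness was the mean absolute difference over the 6 arrays between profiles centred on their own means, computed for 917 genes outside the 10. The nearest were the lysosomal sialic acid transporter gene SLC17A5 (0.051 log2 units), the annexin A2 partner gene S100A10 (0.057), the signal recognition particle gene SRP14 (0.079) and the proton pump subunit gene ATP6V0E1 (0.085), against a median of 0.35 over the 917. SRP14 read 11.13, 11.25 and 11.11 on the arrays labelled +DOX and 10.85, 10.93 and 10.12 on those labelled -DOX. The differences of these 4 genes between the groups lay between 0.51 and 0.63, and between 0.18 and 0.29 without replicate 3 labelled -DOX. For LGALS3BP the nearest were the glycolytic enzyme gene GPI (0.072), the lipoprotein-binding gene HDLBP (0.076), the gamma-secretase subunit gene NCSTN (0.081) and the RNA-binding gene HNRNPK (0.085), against a median of 0.18. These 4, chosen in the same way, were at their highest on the same array, at 13.27, 10.43, 9.85 and 12.55.

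**Figure D3:**
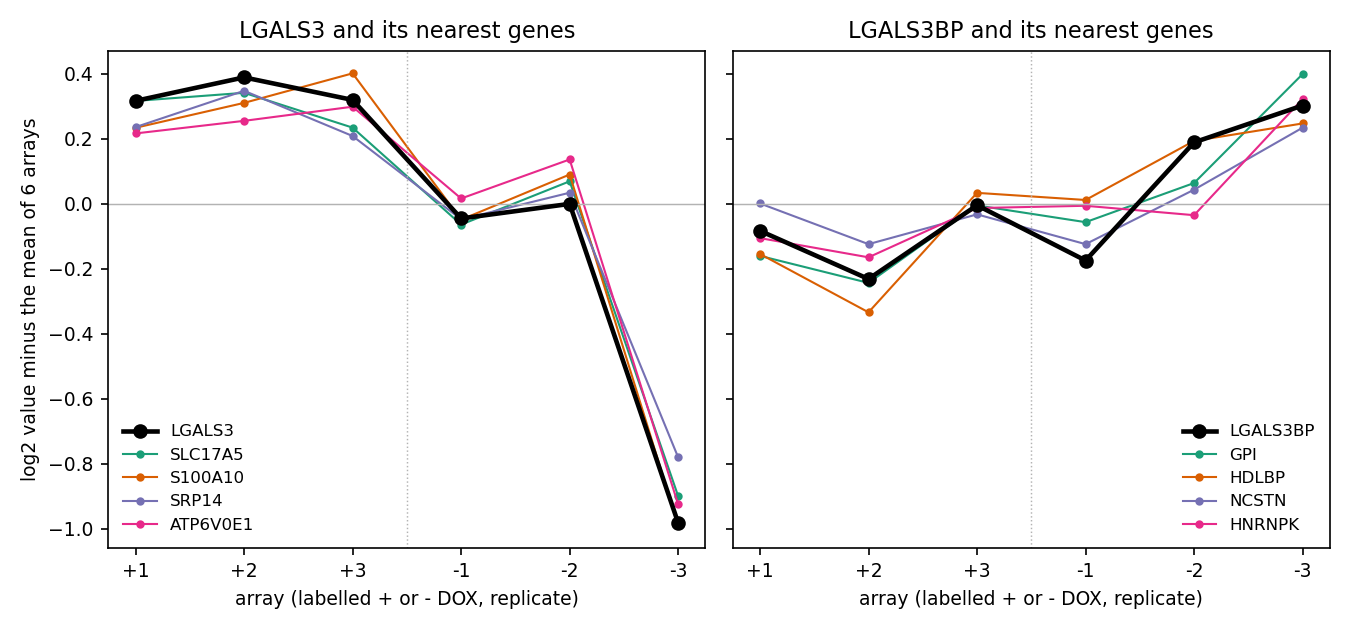
Log2 value minus the gene's mean over the 6 arrays (vertical axis) for LGALS3 (left) and LGALS3BP (right), in black, with the 4 nearest genes of each, by array (horizontal axis; + or - is the doxycycline label, the number the replicate). LGALS3 and its nearest genes are lowest, and LGALS3BP and its nearest genes highest, on replicate 3 labelled -DOX. The nearest genes were chosen by these same values.

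Of the 8 other galectin family genes looked for, 3 were measured. The Charcot-Leyden crystal gene CLC (galectin-10) and LGALS14, a placental galectin, were dim, with differences of 0.02 (limma, adjusted p = 0.880 and 0.885, respectively), and of 0.0011 and 0.02 without replicate 3 labelled -DOX. LGALSL, which encodes a galectin-like protein thought not to bind galactosides, was brighter and varied widely among the arrays labelled -DOX, at 9.39, 8.83 and 9.77 against 9.21, 9.11 and 9.18 on those labelled +DOX. Its difference of -0.16 (SE 0.23; limma, adjusted p = 0.810) was 0.06 without replicate 3 labelled -DOX.

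At an adjusted p of 0.05 (limma), 0 genes listed for the building of galectin ligands passed, where 0% of all 1259 probe sets did. Of 28 genes listed for N-acetyllactosamine chains, N-glycan branches or O-glycan cores, 26 were measured. Of these, 13 had higher and 13 had lower values, where 45.4% of all probe sets had higher values. The median of the list was -0.0098 (-0.0026 without replicate 3 labelled -DOX). The smallest p was that of C1GALT1C1, the chaperone of the core 1 galactosyltransferase, which read 7.80, 7.79 and 7.80 on the arrays labelled +DOX and 7.59, 7.65 and 7.39 on those labelled -DOX, groups that did not overlap. Its difference was 0.25 (SE 0.07; limma, adjusted p = 0.477), and 0.17 without replicate 3 labelled -DOX. GCNT2, which branches polylactosamine, was at -0.14 (limma, adjusted p = 0.581) and C1GALT1, the core 1 enzyme itself, at 0.18 (limma, adjusted p = 0.682), with overlapping groups.

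Sialyltransferases that cap galactose were all 8 measured, 3 with higher and 5 with lower values, where 45.4% of all probe sets had higher values. Their median was -0.015 (-0.014 without replicate 3 labelled -DOX), and 0 passed the threshold, against 0% of all probe sets. ST6GAL1, whose alpha-2,6 sialic acid is known to block binding of several galectins, read 9.17, 8.96 and 9.13 on the arrays labelled +DOX and 9.49, 9.03 and 9.67 on those labelled -DOX. Its difference of -0.31 (SE 0.17; limma, adjusted p = 0.692) was -0.17 without replicate 3 labelled -DOX. ST3GAL1, which caps core 1 O-glycans, differed by -0.19 (SE 0.06; limma, adjusted p = 0.482; -0.13 without that array) with groups that did not overlap, and ST3GAL2 was at 0.13 (limma, adjusted p = 0.710), or 0.04 without that array. Of 36 glycoproteins known to bind galectins 8 were measured, 2 with higher and 6 with lower values, against the same 45.4%. Their median was -0.08 (-0.06 without that array), and 0 passed the threshold, again against 0% of all probe sets. MUC1, MUC4 and MCAM had the smallest p-values, with differences of -0.13, 0.12 and -0.12 (limma, adjusted p = 0.673, 0.693 and 0.693). MUC4 was at 0.06 without replicate 3 labelled -DOX. At an unadjusted p under 0.05 (limma) the counts were 2 for the chain and branch enzymes, 1 for the sialyltransferases and 0 for the galectin-binding glycoproteins, against 7.78% of all probe sets, and the groups did not overlap for 1 gene of each of these 3 lists (C1GALT1C1, ST3GAL1 and MUC1), against 15.8%.

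**Figure D4:**
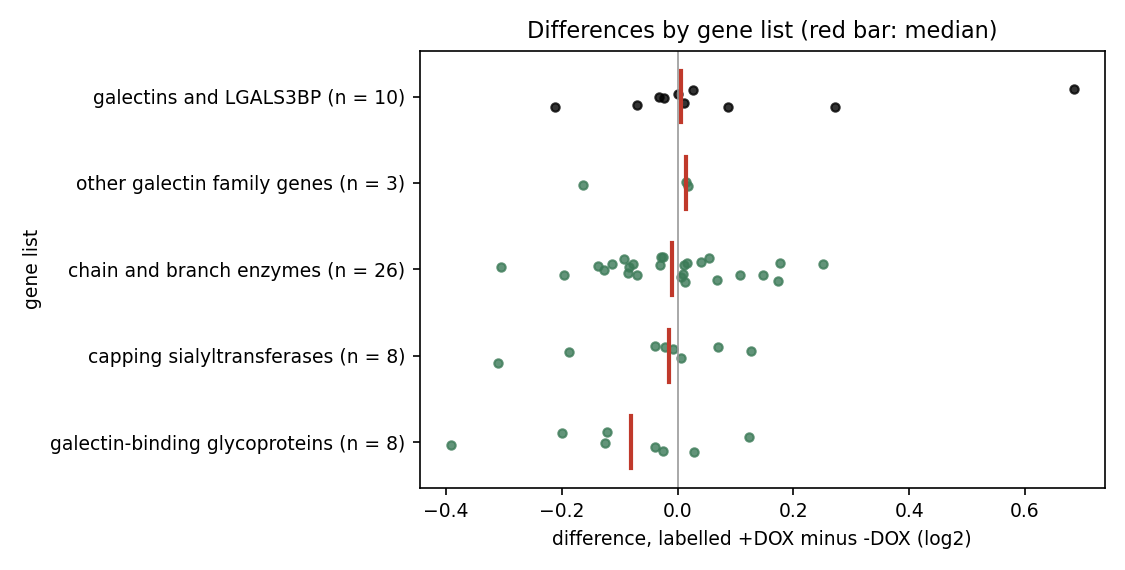
Difference between the groups (horizontal axis, log2, +DOX minus -DOX by label) for every measured gene of 5 lists, 1 point a gene, with the list's median as a red bar. LGALS3 is the point at 0.68, and the medians lie between -0.08 and 0.02.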

How the data were processed

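The deposited table holds log2 expression values that the authors made by RMA (version not given), per the submitters' processing notes. This method corrects background, quantile normalizes arrays and summarises the probes of a set, and differences between dim values come out compressed. RNA was extracted with Trizol and labelled as biotinylated cRNA by the Affymetrix protocol, per the labels' protocols. Array medians lay between 7.61 and 7.65.

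Probe sets were named by RefSeq accession, version dropped, through a GRCh38.p14 gene table; 1043 of 1259 (82.8%) had 1 symbol and the rest are unnamed. Of several probe sets for a gene outside the 10, the brightest was used. Groups were compared with limma 3.58.1 (R 4.3.3, lmFit and eBayes, two-sided) over all probe sets, with Benjamini-Hochberg adjustment at 0.05, and an exact permutation test for single genes. The fit was tested on simulated data. The number of arrays limits precision. Every member is reported; from each context list the text names the 3 genes of smallest p, and for LGALS3 and LGALS3BP the 4 nearest genes. Members and lists were chosen with earlier results of these data known. Alternatives were a replicate block, other scalings, a filter on dim probe sets, array weights, another eBayes prior and each array left out.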

Additional observations from a re-analysis of the deposited data

How the results depend on the processing

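The count of the 10 genes past an adjusted p of 0.05 was 0 under every alternative run. Over all probe sets it was 0 except with array weights, where it was 1; that was none of the 10 genes, and the weights stopped short of full convergence. The number of the 10 whose groups did not overlap was 2, against 15.8% of all probe sets. It was 1 with arrays centred on their medians, against 16.8%. With dim probe sets left out it was also 1, of the 7 genes then remaining for test, against 17.5% of the 944 remaining probe sets. After renewed quantile normalization it was again 2, against 16%, but LGALS1 and LGALS3 in place of LGALS3 and LGALS12. Over all probe sets the count at an unadjusted p under 0.05 was 98 and ran from 45 to 258 with 1 array left out, and was 246 with array weights. With 1 array left out, the number of the 10 whose groups did not overlap ran from 2 to 4. It was highest without replicate 2 labelled -DOX, when 41.4% of all probe sets did not overlap. With any other array left out, that share of all probe sets lay between 21.4% and 25%. LGALS3 was among the genes without overlap each time. The LGALS3 difference ran from 0.36 to 0.86 with 1 array left out (0.36 without replicate 3, 0.86 without replicate 2 labelled -DOX). It was 0.44 with array weights, and its adjusted p (limma) ran from 0.154 to 0.903 over all alternatives. LGALS1 ran from 0.06 to 0.41 and LGALS3BP from -0.35 to -0.11 with 1 array left out, and LGALS12 from -0.09 to -0.05. Values near 0 changed sign: LGALS9 was 0.0040 after renewed quantile normalization, and with array weights LGALS2 was -0.0083, LGALS4 -0.031 and LGALS8 0.010. With 1 array left out the ranges were -0.0065 to 0.032 for LGALS2, -0.024 to 0.029 for LGALS4, -0.00095 to 0.14 for LGALS7, -0.104 to 0.051 for LGALS8, -0.094 to 0.030 for LGALS9 and -0.0087 to 0.076 for LGALS13. The median over the 10 ran from -0.0097 to 0.03. The cause of these shifts was not tested. Deviations of same-numbered arrays from their group means had correlations of -0.147, -0.0428 and -0.157 across probe sets. Deviations within a group of 3 sum to 0, and replicate 3 labelled -DOX was extreme for 61.6% of probe sets. These correlations therefore cannot decide whether same-numbered arrays share a culture or day. With the replicate block 0 probe sets passed and LGALS3 was at 0.68 (limma, adjusted p = 0.715).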
